A study of Homo sapiens with 6 samples.

Results

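The TPD52 family of small coiled-coil proteins was examined in RNA-seq libraries of SK-BR-3, an established HER2-overexpressing breast cancer cell line. Its members here are the 3 genes listed under the symbols TPD52, TPD52L1 and TPD52L2 among the 30327 genes of the count table. The family was chosen by a measured value, the lower level of TPD52L2 in the libraries labelled si_GRB2, and because TPD52 is known as a gene of a breast cancer amplicon. The difference between the groups is therefore described below for these 3 genes without a test. In all, 3 libraries (si_NC) came from cells given a control siRNA without a target and 3 (si_GRB2) from cells given an siRNA against GRB2. Both groups are the same cell line and, per the methods, were transfected with RNAiMAX, and the sources state neither how many independent cultures stand behind the 3 libraries nor a second siRNA used for sequencing, so the spread between libraries may be technical. The titles and genotype labels of the treated libraries name GRB2 overexpression, whereas their descriptions name si_GRB2. GRB2 itself had 123.9, 129.5 and 125.7 CPM (reads scaled by library size to a common total) in si_NC and 27.8, 28.1 and 29.6 CPM in the libraries labelled si_GRB2, which is −2.15 ± 0.04 (standard error) as a log2 fold change. The adjusted p was 3.87e-15 in the quasi-likelihood test of edgeR. These levels go against the overexpression label, and the groups are named by the descriptions throughout.

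Proteins of the D52 family share a coiled-coil region through which they pair with themselves and with each other. TPD52, or D52, is the founding member and lies in a region of the genome that is often gained in breast cancer, where its protein has been linked to vesicle secretion and to lipid droplets. TPD52L1 encodes D53, which has been linked to cell division and binds 14-3-3 proteins. TPD52L2 encodes D54, an abundant protein on the surface of very small transport vesicles that carry cargo such as integrins between membranes. A further family gene, TPD52L3, was not analysed here.

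The sequences below were chosen because TPD52L2 was the member with the largest difference and the one whose 3′ UTR holds the letters ACAGATC. These letters pair with positions 2 to 8, the seed, of the guide strand of the GRB2 siRNA whose sequence the methods print. Which GRB2 siRNA was used for the sequenced libraries is not stated beside them. Each sequence is 19 bases of GRCh38, read 5′ to 3′ on the strand of the gene, with the letters that pair with the seed in capitals.
GRB2: ggtggattatcACAGATCt
TPD52L2: ttgtagatgaaACAGATCa
The GRB2 site lies in exon 5 of 6, within the coding part, on the minus strand at chr17:75321716-75321734. The TPD52L2 window lies in the 3′ UTR, in exon 7 of 7, on the plus strand at chr20:63890152-63890170, and its match starts at base 218 of a UTR of 1593 bases. Of the 19 bases, 8 are the same as in the GRB2 site, 7 of them the seed letters. The match was present in the 3′ UTR of 9 of 9 coding transcripts with an annotated 3′ UTR of TPD52L2 and of 0 of 7 for TPD52 and 0 of 10 for TPD52L1. Among 12686 tested coding genes with a 3′ UTR in their main transcript (median length 1296.5 bases), 8.12% held ACAGATC. With the shorter letters CAGATC, for positions 2 to 7, all 3 members held a match in their main transcript, as did 27.8% of these genes. Only the transcript's own strand was searched, the shorter letters lie within the longer ones, and a match is a run of letters whose part in any difference was not tested.

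All 8 markers of a HER2-amplified luminal line, among them ERBB2, KRT8 and EPCAM, lay between 14.49 and 1332 FPKM (fragments scaled by gene length and library size) in every library. ESR1, PGR and CDH1, known to be low or absent in SK-BR-3, reached at most 0.09 FPKM, and the 4 markers of blood, stromal or liver cells that were in the table reached at most 0.46 FPKM. The libraries held 24810378 to 28532480 counted reads, and the 3 members drew 25885 to 122591 reads each over the 6 libraries, so counting error was small. Because FPKM is scaled by gene length, it was used to compare members, and CPM was used to compare libraries. CPM was scaled by TMM, a correction for library make-up, and FPKM was not scaled by it here. The TMM factors were 0.976 to 0.988 in si_NC and 1.015 to 1.02 in si_GRB2. Differences in FPKM between the groups may therefore carry an offset shared by all genes.

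TPD52 was the most abundant member. In si_NC it had 73.9, 75.52 and 75.38 FPKM, a mean of 74.9 ± 0.898 FPKM (SD, n = 3), which ranked 472 of the 29912 genes in the FPKM table. TPD52L2 followed with 38.99, 40.44 and 42.93 FPKM (40.8 ± 1.99, SD, n = 3), at rank 929. TPD52L1 was the lowest with 17.24, 18.32 and 18.6 FPKM (18.1 ± 0.718, SD, n = 3), at rank 2066. No range touched that of another member, so the order TPD52, TPD52L2, TPD52L1 held in every si_NC library.

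**Figure D1:**
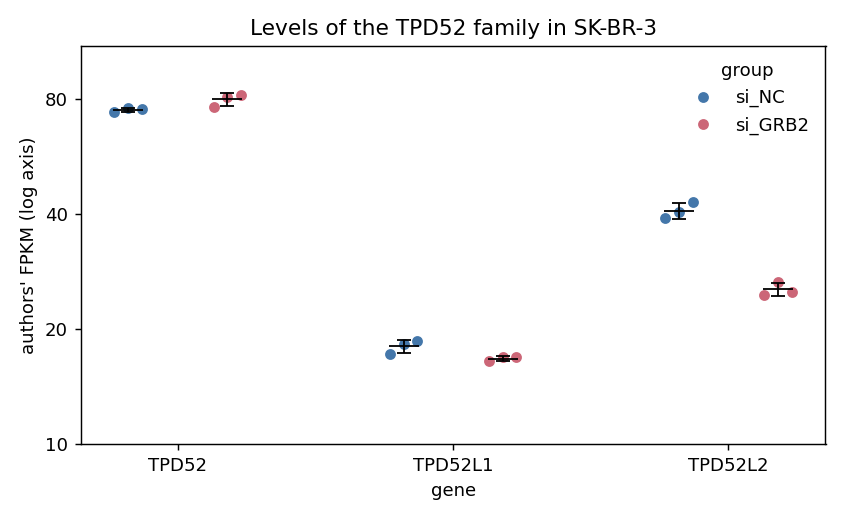
Level of each family gene in the authors' FPKM (log axis). Points are single libraries, the bar is the mean and the whiskers are the SD of 3 libraries per group. TPD52L2 sits at 38.99 to 42.93 FPKM in si_NC and at 24.6 to 26.53 FPKM in si_GRB2, while its place between TPD52 and TPD52L1 stays the same.

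The same order was found in si_GRB2, with closer levels between the lower members. TPD52 had 76.28, 80.78 and 82.11 FPKM there (79.7 ± 3.06, SD, n = 3), TPD52L2 had 24.6, 26.53 and 25.03 FPKM (25.4 ± 1.01, SD, n = 3), and TPD52L1 had 16.46, 16.91 and 16.86 FPKM (16.7 ± 0.247, SD, n = 3). In FPKM, TPD52L2 stood 2.26 ± 0.0504 times above TPD52L1 in si_NC and 1.52 ± 0.0461 times above it in si_GRB2 (SD, n = 3 each). TPD52 stood 1.84 ± 0.0738 times above TPD52L2 in si_NC and 3.14 ± 0.123 times in si_GRB2 (SD, n = 3 each). When the 3 members were summed, TPD52L2 made up 30.5% ± 0.764 of the family FPKM in si_NC and 20.8% ± 0.596 in si_GRB2. The share of TPD52 was 56.0% ± 0.885 and 65.4% ± 0.692, and that of TPD52L1 was 13.5% ± 0.213 and 13.7% ± 0.244 (SD, n = 3 each). The sum itself ranged from 130.1 to 136.9 FPKM in si_NC and from 117.3 to 124.2 FPKM in si_GRB2. These ratios, shares and sums all contain TPD52L2, whose lower level was the value for which the family was picked. They restate that difference, and nothing further is read from them.

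TPD52L2 (ENSG00000101150.18, plus strand, chr20:63865228-63891545) was the member with the largest difference between the groups. It had 235, 238.7 and 241.1 CPM in si_NC and 144, 147.2 and 140.6 CPM in si_GRB2. All si_GRB2 libraries were low and all si_NC libraries high, far apart, and the libraries of each group lay within a few CPM of each other. The means were 238 ± 3.11 and 144 ± 3.34 CPM (SD, n = 3 each), a log2 fold change of −0.73 (standard error 0.03), or 1.66-fold lower. On the log2 scale this difference was 26.8 times the pooled SD between libraries, a spread that may be technical. The lower level of TPD52L2 is the value for which the family was picked, and nothing is read from it or from this ratio. The log2 fold change lay between −0.74 and −0.71 when any 1 library was left out. In bulk RNA, fewer cells with the transcript and less transcript per cell cannot be told apart.

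TPD52L1 (ENSG00000111907.21, plus strand, chr6:125119049-125264407) was slightly lower in si_GRB2. It had 168, 174.9 and 169.1 CPM in si_NC and 155.9, 151.9 and 153.2 CPM in si_GRB2, and the groups did not overlap. The log2 fold change was −0.15 (standard error 0.03), and the mean dropped by 9.97% in CPM and the authors' FPKM dropped by 7.26%. In CPM, the difference was 5.85 times the pooled SD on the log2 scale, which is a description and not a test. HDDC2, a phosphatase gene on the opposite strand, overlaps TPD52L1 with 191 shared exon bases and drew reads equal to 43.9% of those of TPD52L1. Its own log2 fold change was −0.14 (edgeR, adjusted p = 0.0195). The library kit marks the strand, but the sources do not say whether the counting used it, so reads of both genes in the shared bases cannot be told apart here.

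TPD52 (ENSG00000076554.16, minus strand, chr8:80034745-80231232) had nearly the same level in both groups. It had 769.5, 770.1 and 731.7 CPM in si_NC and 771.5, 774.7 and 796.7 CPM in si_GRB2. All si_GRB2 values were above all si_NC values, but the highest si_NC library and the lowest si_GRB2 library were 770.1 and 771.5 CPM. The log2 fold change was 0.04 (standard error 0.03), which was 1.29 times the pooled SD between libraries. That ratio too is a description and not a test. The size of this small difference rested on single libraries, since it was 0.01 without si_NC replicate 3, 0.03 without si_GRB2 replicate 3 and 0.05 without si_GRB2 replicate 1. The mean was 3.15% higher in CPM and 6.39% higher in FPKM, which was not scaled by TMM here. All 3 members had no overlap between the groups in CPM, which was also so for 42.3% of all tested genes.

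**Figure D2:**
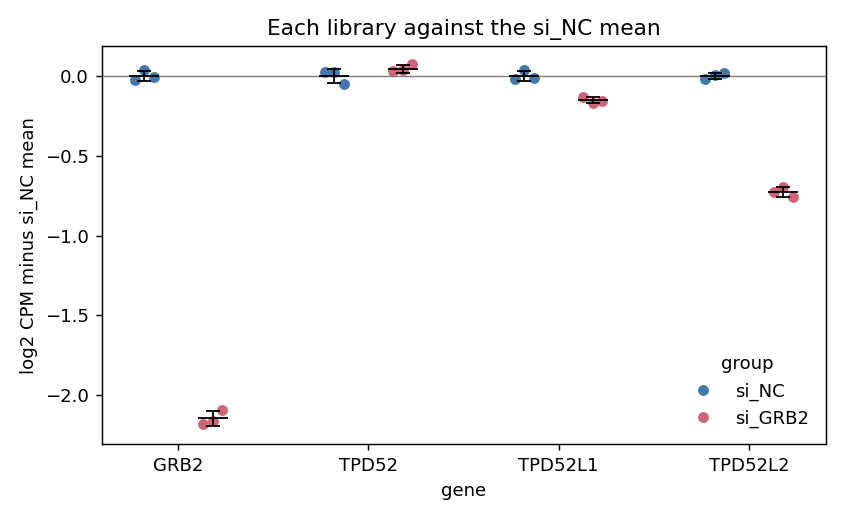
Log2 CPM of GRB2 and the family genes in each library, minus the mean of the si_NC libraries. Points are libraries, the bar is the mean and the whiskers are the SD (n = 3). The si_GRB2 mean is near −2.15 for GRB2, −0.73 for TPD52L2, −0.15 for TPD52L1 and 0.04 for TPD52.

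Reads shared between the members or with overlapping genes could blur these values. The longest stretch of identical bases between transcripts of the members was 37 bases for TPD52 and TPD52L2, 32 bases for TPD52L1 and TPD52L2, and 31 bases for TPD52 and TPD52L1. These stretches are shorter than the read length given in the methods, and only uniquely mapped reads were counted. The gene ENSG00000276418 lies on the same strand as TPD52, spans MRPS28 and part of TPD52, and shares 877 exon bases with it. It drew reads equal to 8.43% of those of TPD52, and its log2 fold change was 0.11 (edgeR, adjusted p = 0.089). For TPD52L2 the annotation lists a lncRNA on the same strand, ENSG00000290226, with 453 shared exon bases, which was not analysed here.

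The chromosomal neighbours of each member were described next, and no member was tested against them. For each member, the 5 nearest tested protein-coding genes on either side were taken. They include ENSG00000276418 and HDDC2, which share exon bases with TPD52 and TPD52L1. The furthest lay 1426 kb from TPD52, 2647 kb from TPD52L1 and 126 kb from TPD52L2. Of these 30 genes, 5 were lower in si_GRB2, 4 were higher and 21 did not pass an adjusted p under 0.05 (edgeR's quasi-likelihood test over all genes). Of all tested genes, 15.5% were lower and 15.2% were higher at the same limit, against 16.7% and 13.3% of the neighbours. The median log2 fold change of the neighbours was −0.0084, and that of all tested genes was 0.0019. The neighbour counts depended on the values used, since in limma fits of log2(FPKM + 1) and log2(FPKM + 0.1) 2 and 3 neighbours were lower and 2 were higher in both. Calls over the whole table were also fewer in these fits, with 2633 and 2663 of 15800 genes in either direction. In the edgeR fit 4838 genes were called.

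Beside TPD52L2, the neighbours spanned log2 fold changes from −0.62 to 0.31 with a median of −0.00048, and 1 was lower and 2 were higher. ABHD16B, 2.24 kb away on one side, had few reads (1.14 ± 0.301 CPM in si_NC and 0.743 ± 0.131 CPM in si_GRB2, SD, n = 3 each), and its log2 fold change of −0.62 did not pass the test (standard error 0.27, adjusted p = 0.1, edgeR). DNAJC5, the gene of a synaptic vesicle chaperone 3.58 kb away on the other side, fell from 186 ± 2.88 to 163 ± 5.74 CPM (SD, n = 3 each). Its log2 fold change was −0.19 (adjusted p = 0.00028, edgeR). The 2 higher genes were ZBTB46 and ZNF512B, with log2 fold changes of 0.31 and 0.19. None of these 10 estimates reached the −0.73 of TPD52L2, which was picked for its fall. The estimate for ABHD16B lay within its own standard error of that value.

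Around TPD52, the levels of the neighbours varied widely, from 0.07 to 113 FPKM in si_NC, and 9 of the 10 lay below TPD52. The exception was MRPS28, a mitochondrial ribosomal protein gene 4.46 kb away, at 113 ± 5.01 FPKM (SD, n = 3). The nearest tested gene on the other side, the zinc finger gene ZBTB10, had 5.03 ± 0.174 FPKM (SD, n = 3). ZBTB10 and ZNF704, both on that side, were the 2 neighbours that fell, with log2 fold changes of −0.30 (adjusted p = 0.000339, edgeR) and −0.22 (adjusted p = 3e-05, edgeR). Of the 10 neighbours of TPD52L1, 2 fell, namely CENPW and the overlapping gene HDDC2, and 2 rose. The nearest gene that does not overlap TPD52L1, RNF217, had a log2 fold change of −0.11 with a standard error of 0.34. CENPW, a centromere protein gene 1076 kb away, fell from 19.7 ± 1.51 to 4.23 ± 0.173 CPM (SD, n = 3 each), which is −2.22 in log2 fold change (edgeR, adjusted p = 3.72e-11). It was the only one of the 30 neighbours past the limits used for a differentially expressed gene (DEG), a fold of at least 1.5 in either direction and an adjusted p under 0.01. Of the 15801 genes tested, 2.52% were past these limits. SERINC1 and PKIB, 2647 and 2393 kb away from TPD52L1, rose by 0.28 and 0.23 on the log2 scale.

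**Figure D3:**
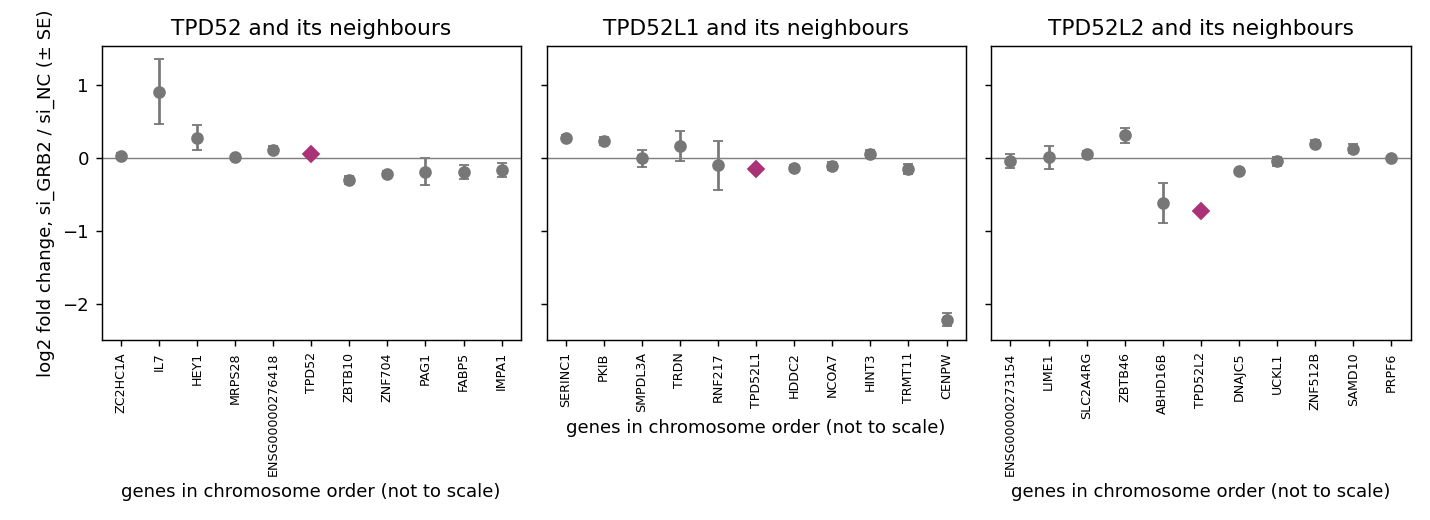
Log2 fold changes (si_GRB2 over si_NC, with standard errors) of each family gene (diamond) and its 5 nearest tested protein-coding genes per side (circles), in chromosome order and not to scale. TPD52L2 stands at −0.73 between ABHD16B at −0.62, which has few reads, and DNAJC5 at −0.19, and CENPW is the lowest neighbour at −2.22.

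The genes whose proteins are known to work with the family were followed in the same fit. The first list held 16 genes, namely reported binding partners of D52 proteins and 2 coat proteins of lipid droplets, and all 16 were tested. Of these, 5 fell (31.2%), 3 rose (18.8%) and 8 did not pass, where 15.5% of all genes fell and 15.2% rose. The list was chosen with earlier results of these data known, so nothing is read from these shares. The median log2 fold change was −0.0069. MAL, which encodes a membrane protein of raft-like domains in apical transport, fell from 10.9 ± 0.252 to 6.56 ± 0.299 CPM (SD, n = 3 each), a log2 fold change of −0.73 (± 0.09, standard error; edgeR, adjusted p = 9.7e-06). PLIN2, the gene of a lipid droplet coat protein, fell from 22.7 ± 0.68 to 16.8 ± 0.586 CPM, which is −0.44 in log2 fold change (edgeR, adjusted p = 2.18e-05). SFN, the epithelial 14-3-3 protein, fell by 0.32 on the log2 scale (adjusted p = 3.36e-05, edgeR).

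The other two that fell were PLP2 (−0.23) and YWHAH (−0.22), and those that rose were YWHAB (0.19), PLIN3 (0.18) and MAL2 (0.17), where the values are log2 fold changes. These genes were named after their values were seen, because the counts were small. MAL2, the MAL-type protein first found as a D52 partner, was far more abundant than MAL and had 1863 ± 64.5 CPM in si_NC and 2091 ± 53.9 CPM in si_GRB2 (SD, n = 3 each). The 14-3-3 genes went both ways, since YWHAB rose, SFN and YWHAH fell, and YWHAE, YWHAG, YWHAQ and YWHAZ did not pass the test. MAP3K5, the stress kinase bound by D53, had a log2 fold change of 0.01 with a standard error of 0.10.

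The second list held 27 genes of Golgi, recycling and endosome traffic, including the integrin cargo of the D54 vesicles, and 26 were tested. Of these, 3 fell (11.5%), 13 rose (50%) and 10 did not pass, beside 15.5% and 15.2% of all genes. This list too was chosen with earlier results of these data known, so nothing is read from these shares. In both limma fits on FPKM, 2 genes of this list fell and 9 rose. With a pseudocount of 1 and of 0.1, these fits called 2633 and 2663 of 15800 genes in either direction. In the edgeR fit, the median log2 fold change of the list was 0.11, and most rises were small. STX12, an endosomal SNARE, rose from 18.9 ± 0.527 to 42.1 ± 1.21 CPM (SD, n = 3 each), which is 1.16 in log2 fold change (edgeR, adjusted p = 6.23e-11). Its rise was known when the list was made. RAB30, a small GTPase of the Golgi, rose from 6.27 ± 0.313 to 9.54 ± 0.278 CPM (SD, n = 3 each), which is 0.61 in log2 fold change (edgeR, adjusted p = 0.000116).

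The integrin chains of this list went in opposite directions. ITGA5, the alpha chain of the fibronectin receptor, fell from 7.27 ± 0.34 to 2.87 ± 0.35 CPM (SD, n = 3 each), which is −1.34 in log2 fold change (edgeR, adjusted p = 1.02e-06). ITGB1, its beta chain, rose by 0.19 on the log2 scale from 59.0 ± 2.47 to 67.2 ± 2.38 CPM (SD, n = 3 each; adjusted p = 0.00275, edgeR). The other genes that fell were RAB11B, by 0.30, and VAMP8, by 0.14, and both were named after their values were seen, as was ITGB1. STX12, whose rise was known beforehand, RAB30 and ITGA5 were the 3 genes of the 26 past the fold and p limits for a DEG, beside 2.52% of all tested genes.

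**Figure D4:**
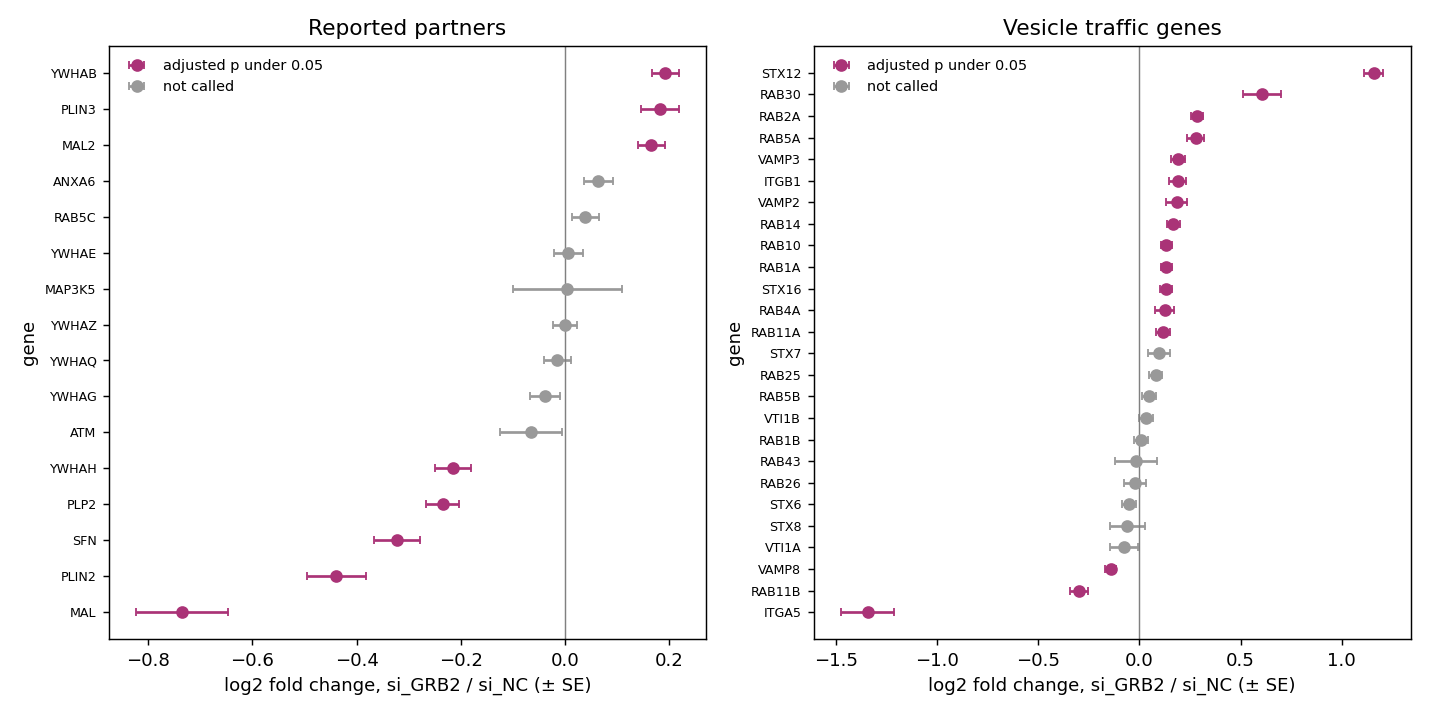
Log2 fold changes (si_GRB2 over si_NC, with standard errors) of the tested genes of both lists, coloured where the adjusted p is under 0.05. Among reported partners MAL is lowest at −0.73, and among traffic genes ITGA5 is lowest at −1.34 and STX12 highest at 1.16.

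Among 10623 other genes with a mean of at least 5 CPM, the 5 whose profile over the 6 libraries lay nearest to that of TPD52L2 were GJA5, TEX261, POLH, SEC23IP and CD44. Nearness was the root mean square distance of log2 CPM after centring each gene on its own mean, and it ran from 0.0285 for GJA5 to 0.0382 for CD44. GJA5, the gene of connexin 40, had 355.1, 363.1 and 351.1 CPM in si_NC and 213.5, 214.6 and 215 CPM in si_GRB2. TEX261 had 103.1, 100.7 and 102.9 CPM and then 61.8, 61.1 and 58.2 CPM. In both, the libraries of each group lay close together and the groups were far apart, as for TPD52L2. POLH, a DNA polymerase for damaged templates, went from a mean of 28.8 to 18.0 CPM. SEC23IP, a partner of the COPII coat, went from 43.0 to 25.6 CPM, and CD44, the hyaluronan receptor, from 13.7 to 7.94 CPM. Their log2 fold changes ran from −0.79 to −0.68, which the choice by likeness fixes, and membership was unstable, since single libraries left out kept 2 to 4 of the 5.

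**Figure D5:**
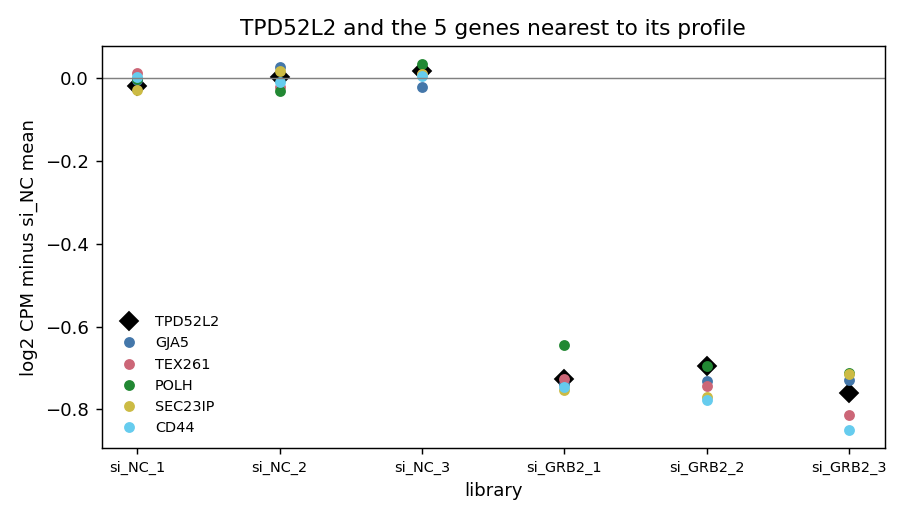
Log2 CPM of TPD52L2 (diamonds) and the 5 genes nearest to its profile (circles) in each library, minus the mean of the si_NC libraries for each gene. In every si_GRB2 library all 6 genes lie well below their si_NC values, which the choice by likeness to TPD52L2 fixes. The order of replicates has no meaning.

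The seed letters were also looked up in these 5 genes, a step added after the genes were known. The genes were picked from these data for their likeness to TPD52L2. The lookup was not repeated for the genes named with a library left out, so nothing is read from the number of matches. The 3′ UTRs of 3 of the 5, TEX261, POLH and SEC23IP, held ACAGATC, beside 8.12% of the tested coding genes, and their sites are shown because they can be set beside the TPD52L2 site printed earlier.
TEX261: tggcatactacACAGATCa
POLH, first match: tttttatctttACAGATCt
POLH, second match: ggccgaggcagACAGATCa
SEC23IP: tgaaaaattccACAGATCa
These lie on GRCh38 at chr2:70986091-70986109 (minus strand), chr6:43614592-43614610 and chr6:43615030-43615048 (plus strand), and chr10:119940824-119940842 (plus strand). Of their 19 bases, 9, 12, 11 and 11 are the same as in the GRB2 site. In each, these include the letters ACAGATC by which the sites were found, so nothing is read from this likeness. The 3′ UTRs of these 3 genes were long, at 2658, 5966 and 4092 bases, against the median of 1296.5 bases among tested genes, and those of GJA5 and CD44, without ACAGATC, had 1963 and 3069 bases. The shorter letters CAGATC were found in all 5 genes, with 2 matches in GJA5 and 1 in CD44, beside 27.8% of the tested coding genes. The paper also names TPD52L2 among changed genes whose mRNA or antisense RNA held sites bound by GRB2. Those binding data were not analysed here. The part of seed matches or of such binding in the lower counts of TPD52L2 and of these genes was not tested.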

How the data were processed

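Poly(A) RNA of 6 SK-BR-3 libraries was sequenced. Per the paper's methods, the authors trimmed reads with FASTX-Toolkit and used HISAT2 to align them to GRCh38. Of the uniquely mapped reads, the authors deposited a raw count for each gene and an FPKM value, rounded. The counting tool, its use of strand and the annotation release are not given in the sources used here. Gene positions, transcripts and 3′ UTRs came from GENCODE 44 (GRCh38).

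The 3 genes and the lists were chosen with earlier results of these data known. The counts were scaled by TMM in edgeR 4.0.16 under R 4.3.3. After filterByExpr, 15801 genes remained, on which the groups were compared by the quasi-likelihood test without covariates, adjusted over all of them by Benjamini-Hochberg. All 3 members passed the filter. Standard errors are the log2 fold change divided by the square root of F. CPM are TMM-normalized, and log2 CPM used a prior count of 2. FPKM alternatives used limma 3.58.1 with pseudocounts of 1 and 0.1. DESeq2 1.42.0 was another alternative.

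Named genes were the members, GRB2, the 3 largest changes of each list at an adjusted p under 0.05, the nearest neighbour per side, neighbours past the DEG limits, overlapping genes, and the 5 genes nearest in profile. Outside this rule, the neighbours ZNF704, ZBTB46, ZNF512B, SERINC1 and PKIB, and further genes of both lists, were also named with their values known. No protein table was given, so the planned protein comparison was not made.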

Additional observations from a re-analysis of the deposited data

How the results depend on the processing

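Of 183 refits of the values above, 0 changed sign, and 159 kept their side of the threshold, moved by less than the spread between libraries or, for counts, stayed within 1.5 times. Of the rest, 14 counts were lower and 1 was higher by more than that, and 9 values moved beyond the spread. The fits in FPKM differed most. With limma on log2(FPKM + 1) and log2(FPKM + 0.1), the log2 fold change was −0.66 and −0.68 for TPD52L2, −0.10 and −0.11 for TPD52L1, and 0.088 and 0.089 for TPD52. The median log2 fold change of all genes was 0.0237 and 0.0425 in these fits, against 0.0019 in the edgeR fit. FPKM was not scaled by TMM here. In the same fits, 2 and 3 neighbours were lower (5 in the edgeR fit), 2 and 2 were higher (4 in the edgeR fit), 9 traffic genes rose and 2 fell in both (13 and 3 in the edgeR fit), 2633 and 2663 genes passed an adjusted p under 0.05 (4838 in the edgeR fit), and 95 and 261 were past the DEG limits (398 in the edgeR fit). The cause was not tested. As TMM CPM per kilobase of merged exons, the si_NC levels were 93.3 for TPD52, 22.5 for TPD52L1 and 50.8 for TPD52L2, in the same order. Of the 5 genes most like TPD52L2, 2 were named again with log2(FPKM + 1) and 2 to 4 with single libraries left out. With positions 2 to 7 of the seed, 3 members held a match. Same-numbered libraries were not shown to be paired, since their deviations had correlations of 0.23, −0.0948 and 0.0804, and not every library correlated best with its own number. With a replicate block, the log2 fold change of TPD52L2 was −0.73 and no count moved by more than 1.5 times. No alternative was added after the data were seen.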
